A study of Saccharomyces cerevisiae with 4 samples.

Results

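The bodies of protein-coding genes in the interior of budding yeast chromosomes were examined for sites of 2 related NAD+-dependent histone deacetylases, Sir2 and Hst1. A body ran from the annotated start to the annotated stop of a gene. All nuclear protein-coding genes of the R64 assembly that lay more than 30 kb from a chromosome end were taken, and the 91 Gag and Gag-Pol genes of Ty retrotransposons were left out. This gave 5526 of the 6002 nuclear protein-coding genes, over 8.04 Mb of sequence. A further 385 genes lay nearer to the ends. No enrichment value entered the choice, but the right end of a chromosome was set by its outermost gene or peak.

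The data were peak lists from ChIP-seq, the sequencing of DNA that is recovered with an immunoprecipitated (IP) protein. Chromatin came from early log phase cells grown in YPD, a rich glucose medium, and the antibody was directed against the HA tag. The 3 groups were an HA-tagged Sir2 strain (LRY1926), an HA-tagged Hst1 strain (LRY0558) and the parental strain (LRY1009), which gave the mock IP with that antibody. Each group had 1 list, with 159, 692 and 3 peaks respectively, so there is no replicate error and no test between the IPs was possible. The genomic input of the parental strain was not analysed here. The lists give no read counts, and the depth behind them is unknown. All coordinates are those of the sacCer3 build.

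Sir2 is the deacetylase of the SIR complex, which spreads over silent mating loci and subtelomeric chromatin, and it also works at the ribosomal DNA (rDNA). Hst1 acts with the DNA-binding protein Sum1, which brings it to promoters of genes that are kept off in growing cells, among them genes of middle sporulation. The yeast genome is compact. The end of one gene often reaches into the stretch upstream of the next, so a site inside one body can also be a site in front of its neighbour.

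Few gene bodies held a summit, the position of highest enrichment in a peak. In the Hst1 list 88 of 5526 interior genes did (1.59%, 95% exact Clopper-Pearson interval 1.28 to 1.96), and the share over all nuclear protein-coding genes was 1.93%. In the Sir2 list 9 genes did (0.163%, interval 0.0745 to 0.309), against 0.983% of all nuclear protein-coding genes. The mock IP had summits in 3 genes (0.0543%, and 0.05% of all). Intervals cover counting error only. With a minimum −log10 q of 10, where q is the caller's adjusted p, Hst1 summits lay in 52 interior genes (0.941%). Of the 59 genes behind the 0.983% for Sir2, 38 were Ty genes, which the interior set leaves out (41.8% of 91 Ty genes). The genes nearer to the ends had higher shares than interior genes, with 24 of 385 (6.23%, interval 4.03 to 9.13) for Hst1 and 12 of 385 (3.12%, interval 1.62 to 5.38) for Sir2.

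More genes were touched by some part of a peak. Hst1 peaks reached 306 interior genes (5.54%, with 6.01% of all nuclear protein-coding genes) and Sir2 peaks reached 23 (0.416%, with 2.5% of all). Of the 306 genes, 133 were reached at their start alone, 113 at their stop alone and 45 at both ends, which left 15 whose Hst1 peaks lay wholly between start and stop. The median touched gene had 23.1% of its body under an Hst1 peak. Whole bodies were covered in 35 genes for Hst1 and in 8 for Sir2. Among the 35 were YAT1, BNA1, DAL80, SPS4, RPL29 and both CUP1 copies, CUP1-1 and CUP1-2, metallothionein genes that lie in tandem, so that reads may be placed at either copy.

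Hst1 summits were sparser inside interior genes than in the sequence around them. Interior bodies held 90 Hst1 summits, or 11.2 per Mb (95% Poisson interval 9.01 to 13.8). The interior sequence outside these bodies and Ty genes held 486 in 2.84 Mb, or 171 per Mb (interval 156 to 187). These intervals do not overlap, but they cover counting error within 1 list and are not a test. Without summits near tRNA genes the densities were 11.0 per Mb in bodies and 141 per Mb outside. For Sir2 the same regions held 10 summits (1.24 per Mb, interval 0.597 to 2.29) and 18 summits (6.34 per Mb, interval 3.76 to 10.0). Body summits were 13.0% of all Hst1 peaks and 6.29% of all Sir2 peaks.

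Body sequence was not uniform either. It was divided into sequence in the 500 bp upstream of another protein-coding gene, the first and the last 100 bp of the body outside such stretches, and the remainder deep in the body. The stretches upstream of a neighbour made up 7.57% of body sequence and held 40 of the 90 Hst1 summits (44.4%, interval 34.0 to 55.3), or 65.7 per Mb. The first 100 bp held 9 summits (21.6 per Mb) and the last 100 bp held 7 (18.3 per Mb). The deep sequence made up 82.5% of the total and held 34 summits, or 5.12 per Mb (interval 3.55 to 7.16). Sequence outside bodies had 189 per Mb in the 500 bp upstream of genes and 141 per Mb elsewhere.

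**Figure D1:**
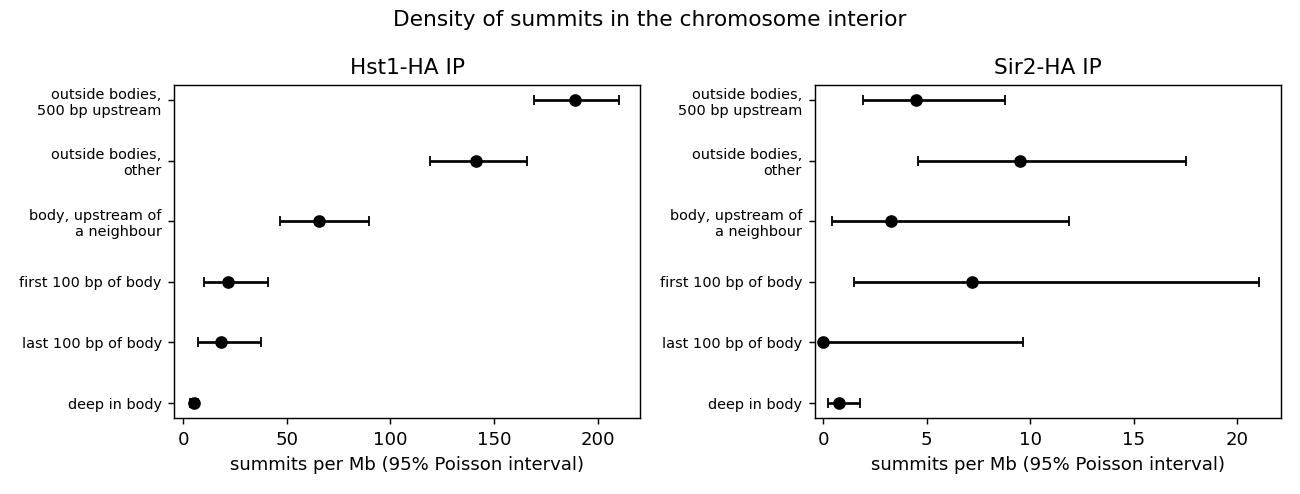
Summits per Mb (points) with 95% Poisson intervals (bars) in 6 classes of interior sequence, for the Hst1-HA IP and the Sir2-HA IP. The first and last 100 bp and the deep sequence exclude stretches upstream of a neighbour. Hst1 values run from 5.12 per Mb deep in bodies to 189 per Mb outside bodies in the 500 bp upstream of genes, and the Sir2 axis reaches far lower values.

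Within the bodies, Hst1 summits were most frequent in the last 20%, where most of them also lay upstream of a neighbour. The last 20% of the body held 39 of 90 summits (43.3%, interval 32.9 to 54.2), the first 20% held 20 (22.2%, interval 14.1 to 32.2), and the 3 classes between them held 9, 14 and 8. An even spread would put 20% in each. With the first and last 100 bp of every gene left out, the last 20% held 9 of the 43 summits left (20.9%). Positions were still measured over the full gene, so the sequence left out came mostly from the first and last classes. An even spread would then put less than 20% in the last class. In the last class, 26 of the 39 summits also lay in the 500 bp upstream of another gene. Without such sites the 5 classes held 13, 7, 10, 7 and 13 summits. Of the sequence of the last class, 16.1% lay upstream of a neighbour, against 13.2% of the first class, which held 7 such summits, and 1.88% of the middle one, which held 4.

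**Figure D2:**
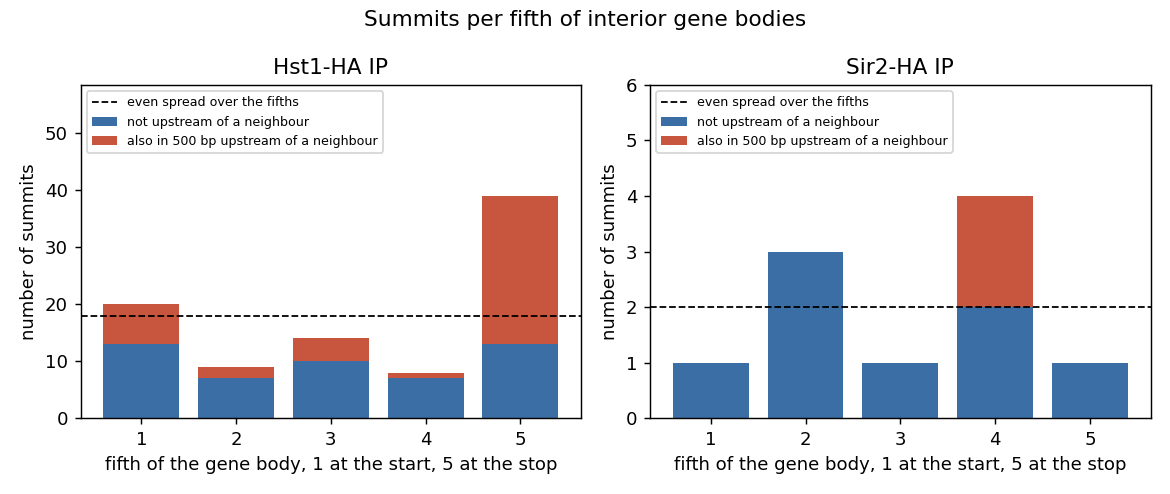
Number of summits in each of 5 equal parts of the gene body, from start (1) to stop (5), for the Hst1-HA IP (90 summits) and the Sir2-HA IP (10 summits). Colours separate summits that also lay in the 500 bp upstream of a neighbour, and the dashed line is an even spread. In the Hst1 list the last class holds 39 summits, 26 of them upstream of a neighbour.

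The neighbour was usually the next gene on the same strand. For 27 of the 40 Hst1 summits the nearest such start belonged to a gene in the same direction, and 23 of these 27 lay in the last 20% of the body. For the other 13 the neighbour ran in the opposite direction, and 6 of the 13 lay in the first 20% of the body. These positions largely follow from the definition. The stretch of a same-strand neighbour enters a body from its stop, and that of a divergent neighbour from its start. The share of body sequence in stretches of each direction was not computed. The distance to the nearest neighbouring start was 48 to 499 bp, with a median of 340 bp. In 5 cases the summit lay upstream of more than 1 neighbour. The count rests on the length of the stretch: with 250 bp it was 9 of 90 (10.0%), and with 1000 bp it was 70 of 90 (77.8%).

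The Hst1 body summits of highest fold included sites in front of neighbours and sites that were not. The authors' fold, the caller's ratio of the pileup at the summit to the local background, was highest at YPR053C (XVI, 665571 to 666963, fold 8.57), where the summit lay 11 bp inside the start. YPR053C runs divergently from SMK1, a MAP kinase gene of spore wall formation whose start was 48 bp away, and overlaps NHP6A, whose start was 258 bp away. The next was FUN26, a nucleoside transporter gene (I, 108477 to 109400, fold 7.90), with a summit 28 bp before the stop and 354 bp before the start of PMT2. Both summits sit at the edge of the gene that holds them.

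Next in fold was YAR035C-A, an open reading frame of 81 bp (I, 189774 to 192751, fold 7.24), whose summit was 221 bp before the start of SWH1. OSW1, which encodes an outer spore wall protein, had a summit 61 bp after its start and 309 bp from the divergent gene SEC63, a translocon subunit gene (fold 6.51). DAL80, a repressor gene of nitrogen catabolism, had one 44 bp before its stop and 276 bp before DID2 (fold 5.87). At SPO19, a meiosis-specific gene, it was 22 bp before the stop and 262 bp before TAF14 (fold 4.65). Of the 10 genes of highest fold, these 6 had a summit in front of a neighbour, where 40 of all 90 summits did (44.4%). The other 4, SPS2, STO1, SSP1 and LCL1, did not. In CDC13, the gene of a telomere-binding protein, which stood just below these 10, it was 9 bp before the stop (fold 4.08) and 452 bp before FMP45.

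Other Hst1 summits lay just inside the start of the gene itself, with no neighbour's upstream stretch in the same place. The strongest of these was SPS2, a sporulation-specific gene, with a fold of 6.82 at 22 bp after its start (IV, 1484808 to 1485916). SSP1, a gene of prospore membrane formation, had a fold of 4.80 at 11 bp. GSC2, a glucan synthase gene, had a fold of 2.29 at 3 bp. The 9 genes of this kind also included SPO21, which encodes a subunit of the meiotic spindle pole (fold 1.91 at 45 bp), AUS1, a sterol uptake gene (fold 2.17 at 38 bp), and SPO24 and GLO1.

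The 34 summits deep in the body, more than 100 bp from both ends, had a median fold of 2.08 (quartiles 1.79 and 2.87), against 2.32 (quartiles 2.07 and 2.99) for the 40 in front of neighbours. The strongest was in STO1, the gene of the large cap-binding subunit, with a fold of 4.84 at 145 bp after the start, or 4.99% of the body, in a peak that also covered the start (XIII, 517399 to 518049). LCL1, a gene of 306 bp, followed with 4.67 at 124 bp, in a peak that covered both its ends. In SCS3, a lipid synthesis gene, the summit was 919 bp after the start (fold 4.09). These 3 peaks each passed a −log10 q of 10, as did 17 of the 34.

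In WHI5, a repressor gene of the start of the cell cycle, the fold was 3.93 at 48.1% of the body (XV, 479401 to 480321). In RRN5, a gene of a ribosomal RNA transcription factor, it was 3.74 at 61.7% (XII, 424019 to 424639). In TOS4 it was 3.14 at 88.3% and in PHM7 it was 3.10 at 86.7%. RAX1, a bud site gene, stood between RRN5 and TOS4 with 3.25, but its summit was 45 bp before the stop. None of these genes had a Sir2 or mock IP peak on its body.

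**Figure D3:**
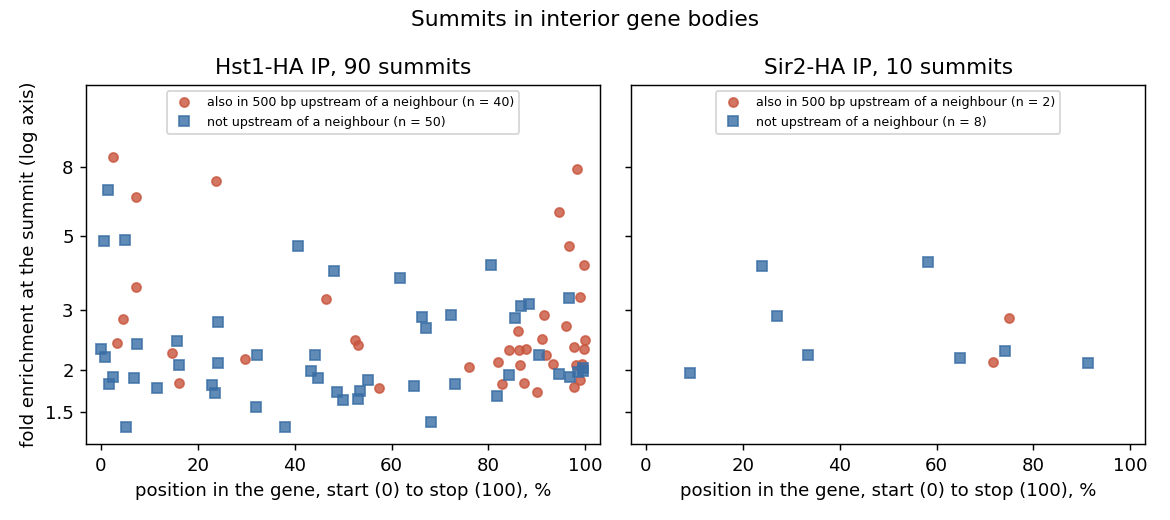
The authors' fold at each summit (log axis) against its position in the gene from start (0) to stop (100), for 90 Hst1 and 10 Sir2 summits. Round points also lay in the 500 bp upstream of a neighbour and square points did not. Hst1 summits with a fold above 5 lie near the edges of the body except for YAR035C-A, a gene of 81 bp.

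Among all 90 Hst1 body summits the fold ran from 1.35 to 8.57 with a median of 2.20 (quartiles 1.87 and 2.87). The 486 Hst1 summits of the interior outside bodies had a median of 2.23 (quartiles 1.88 and 3.13), so body summits were not set apart by their fold. The lowest values were 1.35 in YHR054C and in TAR1. TAR1 lies within the 25S ribosomal RNA gene, and its summit belonged to a peak of 17103 bp over the rDNA. Peaks with a body summit had a median length of 379.5 bp, and 20 of the 90 lay wholly inside the gene.

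Genes that held an Hst1 summit were short. Their median length was 913.5 bp (quartiles 403.5 and 1587.75 bp), against 1198.5 bp (quartiles 714 and 1878 bp) over all interior genes. Genes under 600 bp made up 36 of the 88 (40.9%, interval 30.5 to 51.9) and 18.8% of all interior genes. Genes without a standard name made up 27 of the 88 (30.7%, interval 21.3 to 41.4) and 9.84% of all. With the interior genes ranked by length in 4 classes of about equal size, the density in the shortest class, 78 to 714 bp, was 64.3 summits per Mb, and in the longest, from 1881 bp, it was 3.98 per Mb. Counted by gene the contrast was smaller, with 39 of 1383 (2.82%) in the shortest class and 16 of 1381 (1.16%) in the longest. Of the 40 summits in the shortest class, 22 were in front of a neighbour, and of the 16 in the longest, 2 were. A stretch of 500 bp can take up most of a short body but only a small part of a long one. Its share of the sequence in each class was not computed. With unnamed genes left out, a setting chosen after seeing the data, the share of genes with a summit was 61 of 4982 (1.22%).

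Few genes had more than 1 summit. FMT1, which encodes the mitochondrial methionyl-tRNA formyltransferase, held 2 Hst1 summits, 292 bp (fold 2.77) and 1039 bp (fold 2.29) after its start, the second of them 443 bp before SCT1. SWM1, a subunit gene of the anaphase-promoting complex needed for spore wall assembly, held 2 as well, at 121 bp (fold 1.71) and at 510 bp, 2 bp before its stop (fold 2.02).

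Middle sporulation genes were the list with the most Hst1 summits in bodies. Of 52 interior members 9 held one (17.3%, interval 8.23 to 30.3), where the share over all interior genes was 1.59%. They were SPS2 (fold 6.82), OSW1 (6.51), SSP1 (4.80), SPO19 (4.65), the septin gene SPR28 (2.70), SMA2 of the spore membrane (2.33), SWM1, SPO21 and LDS2 (1.73 at 53.4% of the body). Of their 10 summits, 4 lay in the first 20% of the body and 4 in the last 20%. The 4 in front of neighbours were those of OSW1, SPO19, SPR28, 351 bp before RAD9, and SMA2, 236 bp before ERV41. For SPO19, SPR28 and SMA2 the body summit was thus at the end of the sporulation gene, with the start of another gene beyond it. SPR28 and LDS2 each also had a stronger Hst1 peak over the start (fold 3.41 and 5.31), with its summit outside the body.

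Peaks touched 34 of the 52 (65.4%, interval 50.9 to 78.0), against 5.54% of all interior genes. In 27 of the 34 the peaks reached the start and not the stop, in 2 the stop and not the start, and in 5 both. Most of this is therefore the promoter side of the gene, and the summit of the peak lay outside the body in all but the 9. BBP1 had the strongest peak (fold 8.75) with 25.3% of its body covered, and SPS4 (fold 7.70) was covered completely. BBP1 was counted on this list, although it is a spindle pole gene that also serves dividing cells. The promoter peaks of this list were known when it was chosen. The counts of touched bodies and of body summits are therefore not independent of them. Sir2 and the mock IP touched 0 of the 52.

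Other lists had few or no summits in bodies, at shares whose intervals also include 1.59%. Of 21 interior genes of NAD+ metabolism, 0 held an Hst1 summit (interval 0 to 16.1) and 6 were touched (28.6%, interval 11.3 to 52.2, against 5.54% of all interior genes), all 6 at the start: BNA2 (51.8% of the body), BNA4 (29.9%), TNA1 of nicotinic acid uptake (14.7%), BNA5 (10.8%), NRT1 of nicotinamide riboside uptake (5.90%), and BNA1, which was covered completely. Of 23 silencing and origin factor genes, REB1 alone held an Hst1 summit, 382 bp after its start (fold 2.42). ABF1, ORC3 and SAS5 were touched at their starts. The ORC3 peak also reached the start of SPO75, a middle sporulation gene, and the SAS5 peak covered SPR2 completely. With REB1, 4 of the 23 were touched (17.4%, interval 4.95 to 38.8), and that interval includes the 5.54% of all interior genes. The promoter peaks of these lists were known as well when they were chosen. The counts of touched genes and of body summits are thus not independent of that choice.

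The lists that hold many of the highly expressed genes of growing cells had at most 1 body summit each, and their intervals include the 1.59% of all interior genes. Of 138 ribosomal protein genes 0 held one (interval 0 to 2.64). Peaks touched 2 (1.45%, interval 0.176 to 5.14, against 5.54% of all interior genes). These were RPL29 (covered completely, fold 6.94) and RPL41B (48.7% covered, fold 2.21), both with the summit of the peak outside the body. Of 24 glycolysis and fermentation genes 0 held one and PYK2 was touched, over 2.83% of its body. Of 25 genes of translation factors and chaperones, SSA4, a heat-inducible HSP70 gene, alone held one, 144 bp after its start (fold 2.38). Of 23 cell wall and plasma membrane protein genes 0 held one, and CCW12 and CWP1 were touched. For this list, the glycolysis list and the chaperone list the interval of the touched share included 5.54%. Some body summits lay in front of members of these lists: RPS30B was 260 bp from a summit in FYV12 (fold 3.25), RPL31B 471 bp from one in YLR406C-A (fold 2.06), GLK1 242 bp from one in YCL042W (fold 2.39) and ADH5 259 bp from one in YBR144C (fold 2.24).

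**Figure D4:**
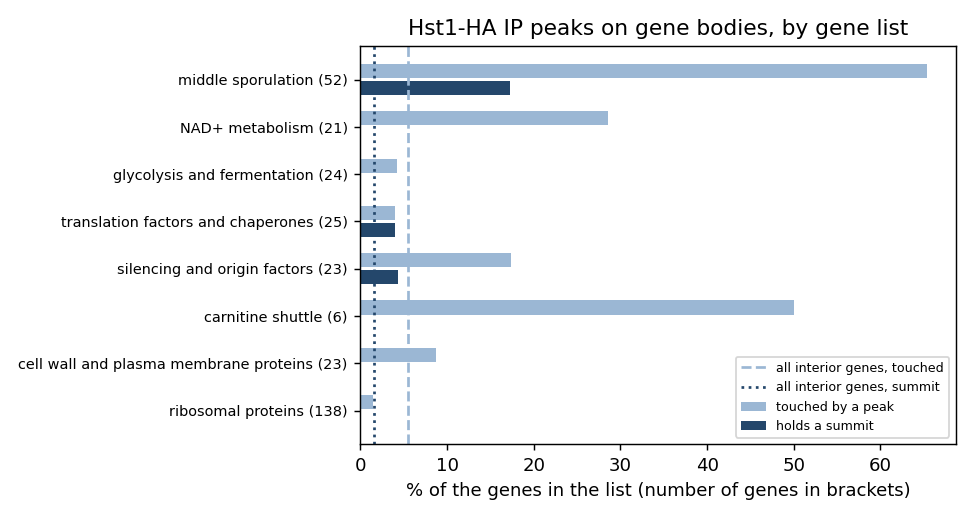
Share of the interior genes of each list that held an Hst1 summit in the body (dark bars) or were touched by an Hst1 peak (light bars), with the number of genes in brackets. Lines give the shares over all 5526 interior genes, 1.59% and 5.54%. Middle sporulation genes reach 17.3% and 65.4%, and ribosomal protein genes 0% and 1.45%.

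The Sir2 list had 10 summits in 9 interior bodies, on 4 chromosomes. Of these 10, 4 lay in the region of the 5S ribosomal RNA genes on XII. YLR156C-A, YLR157C-C and YLR159C-A, open reading frames of 132 bp each, held summits of fold 2.17, 2.10 and 2.26 that were also inside the 5S genes RDN5-3, RDN5-4 and RDN5-5. ASP3-2, an asparaginase gene of the same region, had a fold of 1.96. These loci are repeated, so the copy that a read came from is uncertain. Without the rDNA region and MAT, 6 Sir2 body summits were left.

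The remaining 6 were spread over 5 genes. YFR018C had the highest fold of the Sir2 body summits, 4.17 at 58.2% of its body (VI, 183163 to 183982), with a peak wholly inside the gene. YAT1, which encodes a mitochondrial carnitine acetyltransferase, held 2 summits, of fold 4.05 at 24.0% of its body and 2.09 at 91.3%. PAU2, a seripauperin gene 63727 bp from the nearest chromosome end, had a fold of 2.89 in a peak that lay wholly inside it. PAU genes are near-identical, so this placement is uncertain. PHO4, the gene of the activator of the phosphate response, had a fold of 2.84 at 75.1%, and URA3, a pyrimidine synthesis gene widely used as a marker, had 2.21 at 33.4% (V, 116115 to 116667).

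Of the 10 Sir2 summits, 2 also lay upstream of a neighbour (20.0%, interval 2.52 to 55.6), each close to the limit of 500 bp. PHO4 was 485 bp from QCR6, a gene of the respiratory chain, and YLR157C-C was 495 bp from the Ty genes YLR157C-B and YLR157C-A, which count as neighbours. From start to stop the 5 classes of 20% held 1, 3, 1, 4 and 1 summits. The 10 had a median fold of 2.24 (quartiles 2.12 and 2.88), and 7 of them passed a −log10 q of 10. By fold they ranked from 48 to 139 among the 159 Sir2 peaks.

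A Sir2 peak also covered both genes of the MAT locus, MATALPHA1 and MATALPHA2, completely (III, 198588 to 201207, fold 7.63), but its summit lay between them and counts for neither body. The same peak reached 49.9% of BUD5, a bud site gene, and 89.2% of YCR041W. MAT shares sequence with the silent mating loci, and reads from these may be placed there. Hst1 and the mock IP had no peak at the MAT genes.

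Summits of both IPs were found in 2 genes, YFR018C and PHO4, which are 22.2% of the 9 Sir2 genes and 2.27% of the 88 Hst1 genes. In PHO4 the 2 summits were 65 bp apart and the peaks shared 361 bp. The Hst1 summit had a fold of 2.10 and lay 420 bp before QCR6. In YFR018C they were 318 bp apart and the whole Hst1 peak of 412 bp lay within the Sir2 peak. Its fold was 1.83, and its summit was 408 bp before IGD1. So in both genes the Hst1 summit was nearer to the stop than the Sir2 summit.

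At YAT1 the lists met in another way. The Hst1 peak of fold 7.24 covered YAT1 completely but had its summit beyond the gene, in YAR035C-A and in front of SWH1, 1710 bp from the stronger Sir2 summit and 322 bp from the weaker one. The 2 Sir2 peaks covered 84.3% of YAT1. Hst1 peaks touched 3 of the 6 genes on the carnitine shuttle list (50.0%, interval 11.8 to 88.2, against 5.54% of all interior genes). Besides YAT1 these were YAT2 (fold 2.52) and CRC1 (fold 2.38), both at their starts. An Hst1 summit in YCR006C lay 244 bp before CIT2 (fold 2.46). CIT2 was counted on this list, although it encodes a citrate synthase and not a carnitine enzyme. This list, too, was chosen with earlier results of these data known. In all, 4 of 10 Sir2 body peaks and 4 of 90 Hst1 body peaks overlapped a peak of the other list by at least 1 bp, the fourth of the latter being the rDNA peak at TAR1.

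**Figure D5:**
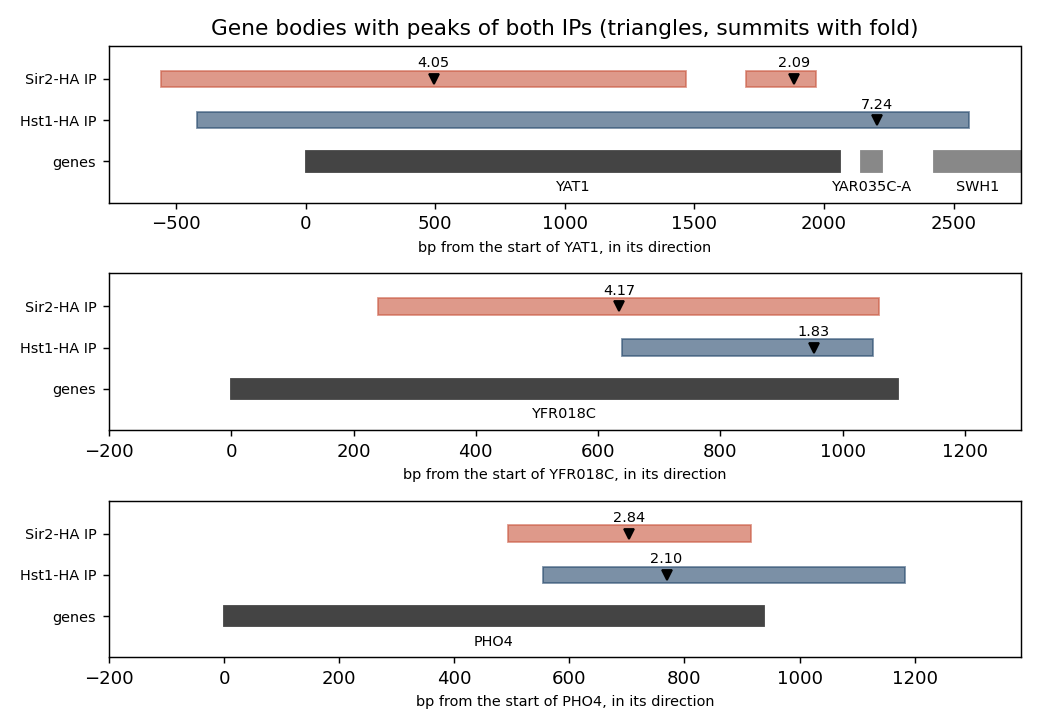
Peaks of the Sir2-HA IP and the Hst1-HA IP (bars) on YAT1, YFR018C and PHO4, in bp from the start of each gene in its direction of transcription, with summits as triangles labelled by fold. In PHO4 the summits are 65 bp apart and in YFR018C 318 bp, while at YAT1 the Hst1 summit lies beyond the gene.

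All 3 peaks of the mock IP had their summits in interior bodies. TRP1, which serves tryptophan synthesis and is a common selection marker, was covered completely (fold 5.32, summit at 63.8% of the body). SIR3, which encodes another subunit of the SIR complex, had 87.1% of its body covered by 1 peak (fold 2.48, summit at 85.6%), and ECM7 held the remaining summit (fold 2.34, at 23.2%). None of these genes had a Sir2 or Hst1 peak, and URA3 had no mock or Hst1 peak. SIR2 and HST1 themselves had no peak on their bodies in any of the 3 lists.

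At the limit of 30 kb, the Hst1 gene just inside was ECM32, a helicase gene 31819 bp from the end (fold 1.90 at 96.9% of its body). Just outside was DAL4, an allantoin permease gene 29492 bp from the end (fold 1.78). For Sir2 they were YAT1 at 37962 bp and CHA1, a serine deaminase gene, at 15797 bp (fold 2.65).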

How the data were processed

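BWA, MACS2 and the build sacCer3 are named in the submitters' processing notes. For versions, cutoffs, the control of each call and any pooling of the 2 technical replicates in the design text, nothing is given in the sources used here. The deposited lists hold, per peak, the authors' fold (a ratio of pileup to local background), −log10 p, −log10 q and a score (the −log10 q multiplied by 10, without its decimals). Folds were used within a list only. The lists hold no read counts.

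Genes came from the RefSeq R64 table, the assembly behind sacCer3. Direction was read from the W or C of systematic names, and Ty genes from a list by name and length. As chromosome lengths were not used, each right end was set where the outermost gene or peak stopped. Positions are 1-based. A summit was scored for each gene whose body held it, and for each other protein-coding gene, Ty genes included, whose 500 bp upstream held it. Genes were assigned with Python 3.11.15, and intervals came from scipy 1.17.1 (exact Clopper-Pearson for shares, exact Poisson for densities). The scoring was tested on simulated data: 200 of 200 planted summits were placed correctly. No test across genes was run, since 1 list per IP has no replicate error.

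The genes and the gene lists were chosen with earlier results of these data known. Named genes were, per IP, the 10 of highest fold overall and of those not in front of a neighbour, genes with summits of both IPs or with 2 summits, mock IP genes, up to 4 members per list, and the genes nearest to the 30 kb limit. Others, such as CDC13, GSC2, AUS1, GLO1, SPO24, MAT and the genes touched or covered by peaks, were chosen after their values were seen. Of the list members, ADY3, ISC10, BNA6, ADH4, HXK1, HXK2 and SIR1 matched no interior gene. No sequence was read.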

Additional observations from a re-analysis of the deposited data

How the results depend on the processing

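There were 166 values, under 15 settings fixed in advance and 1 chosen after seeing the data. Of these, 131 stayed within the interval of the reported value (counts within 1.5 times). The values have no sign, so none could reverse. Those past these limits follow. A minimum −log10 q of 10 gave Hst1 summits in 0.941% of genes, 56.6% of the summits in front of a neighbour, a median fold of 2.70, and 6.60 summits per Mb in and 102 outside bodies. The strongest 50% gave 0.760%, 58.1%, 2.91, 5.35 and 86.3. For Sir2 these settings gave 2.82 summits per Mb outside bodies (both), and the strongest 50% gave 0.0724% of genes and 0.498 per Mb in bodies. Genes with summits of both IPs numbered 1 by −log10 q, 0 in the strongest 50%, 1 with the interior from 50 kb, and 1 without unnamed genes. The last setting gave 1.22% of genes and 8.27 summits per Mb for Hst1. Stretches of 250 and 1000 bp gave 10.0% and 77.8% in front of a neighbour for Hst1, and 250 bp gave 0% for Sir2. Any part of a peak gave 5.54% (Hst1) and 0.416% (Sir2) of genes. With the first and last 100 bp left out, Hst1 had 0.760% of genes and 20.9% of summits in the last 20% of the full body. Without summits near tRNA genes it had 141 per Mb outside bodies. The single Sir2 summits in the first and last 20% fell to 0% by −log10 q and in the strongest 50%, the first also without rDNA and MAT, the last also from 50 kb and with peaks merged. The 10 kb interior, overlapping genes, noncoding neighbours, at least 50% of a peak and mock IP peaks moved no value past these limits. The mock IP setting removed none of the summits counted here, so it could move no value.

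No paired analysis was possible because each IP had 1 list. Depth is unknown, and sites under the authors' cutoff are not seen. The 10 Sir2 summits leave wide intervals. Short genes, repeats and the rDNA limit the placement of single summits.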
